A study of Homo sapiens with 6 samples.

Results

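The mevalonate branch to squalene was followed through 9 enzyme genes, ACAT2, HMGCS1, MVK, PMVK, MVD, IDI1, FDPS, GGPS1 and FDFT1, in RNA from HGC-27 cells, a line from an undifferentiated human gastric cancer. The genes were taken by name from a deposited table of 58233 gene rows, in which each had 1 row, and all 9 passed the filter for testing, 1 TPM or more in at least 3 libraries. With 1 lipid reagent the cells had received either a mixture of siRNAs directed at STRN3 or a control siRNA, and 72 h later RNA was taken for 3 libraries per treatment. The libraries are called siNC and siSTRN3 after their labels. All come from 1 cell line, and no label states that the 3 libraries of a group were grown apart, so p-values speak only for the spread among them, which could be technical.

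The pathway builds isoprenoid units from acetyl-CoA. Thiolase and HMG-CoA synthase make HMG-CoA, which is reduced to mevalonate, and a pair of kinases and a decarboxylase turn mevalonate into isopentenyl diphosphate. Farnesyl diphosphate, made from these units, is the branch point: squalene synthase commits it to sterols, while geranylgeranyl diphosphate synthase extends it for protein prenylation and other non-sterol products. Many of these genes are known targets of SREBP2, a transcription factor released from the endoplasmic reticulum when sterols are low, and SREBP acts at promoters together with NF-Y, which binds the CCAAT box, and Sp1, which binds GC boxes.

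The targeted gene, STRN3, was not lower in the siSTRN3 libraries. It was listed at 3.51, 5.3 and 3.85 TPM in siNC and at 4.76, 5 and 5.56 TPM in siSTRN3 (log2 fold change as deposited 0.24 ± 0.14 SE; adjusted p from limma 0.142; exact 2-sided permutation p = 0.3). This goes against the label, so each direction below compares libraries by label, those labelled siSTRN3 over the siNC ones. Swapped labels and a knockdown that did not lower the RNA level cannot be told apart here, and a swap would turn every direction given. Rows of the nuclear ribosomal RNA repeat took 16.4% to 17.8% of the TPM total in siNC and 42.2% to 43.5% in siSTRN3. Since TPM values share one total, they depend on this makeup. The median log2 fold change of the 13004 tested rows was -0.57 as deposited, and changes are therefore given relative to the median gene, after each library was multiplied by 1 factor that made the medians equal, and deposited values stand beside them. Rose and fell are used in the relative sense, in which STRN3 itself stood at 0.77 (limma adjusted p = 0.00894). Its exact 2-sided permutation p on the rescaled values was 0.1, the smallest possible with 3 libraries a group. The part of the ribosomal share in any change below was not tested. Read depth cannot be recovered from TPM. The epithelial markers EPCAM, CDH1, KRT8, KRT18 and KRT19 were each at or under 1.08 TPM in every library, and 4 fibroblast markers (COL1A1, COL1A2, DCN and LUM) summed to 390 to 398 TPM in siNC and 232 to 246 TPM in siSTRN3. The sum does not describe each of these genes. Over all libraries COL1A1 ran from 99.9 to 127 TPM and COL1A2 from 6.85 to 15.2 TPM. DCN ran from 72.4 to 170 TPM and LUM from 44.5 to 93.0 TPM. The marker values are deposited TPM, not rescaled, and on that scale the median row stood at -0.57. The part of these matrix genes in the results was not tested either.

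Of the 9 genes, 7 rose (HMGCS1, MVK, MVD, FDFT1, IDI1, FDPS and ACAT2) and 2 fell (GGPS1 and PMVK) relative to the median gene (limma with a mean-variance trend on log2(TPM + 1), Benjamini-Hochberg adjusted p under 0.05 over all tested rows). Across all tested rows 11% were called higher and 10.4% lower. With TPM taken over protein-coding rows instead, the same numbers of the 9 genes were called, 7 higher and 2 lower, but the background was less even, with 1080 rows higher and 1982 lower of 11152. The libraries of both treatments did not overlap for any of the 9 genes after rescaling, 7 higher and 2 lower, where 20.7% of all rows were higher and 21.8% lower without overlap. On the deposited scale the picture was different: only HMGCS1 and MVK were called higher, ACAT2, PMVK, FDPS and GGPS1 were called lower, and MVD, IDI1 and FDFT1 passed in neither direction, against a background of 1.01% called higher and 80.8% called lower. The median log2 fold change of the 9 genes was 0.61 relative to the median gene and -0.03 as deposited, beside -0.01 and -0.57 for all tested rows. Summed, the 9 genes made up 0.0657% to 0.0667% of the TPM of protein-coding genes in siNC and 0.0890% to 0.0909% in siSTRN3.

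**Figure D1:**
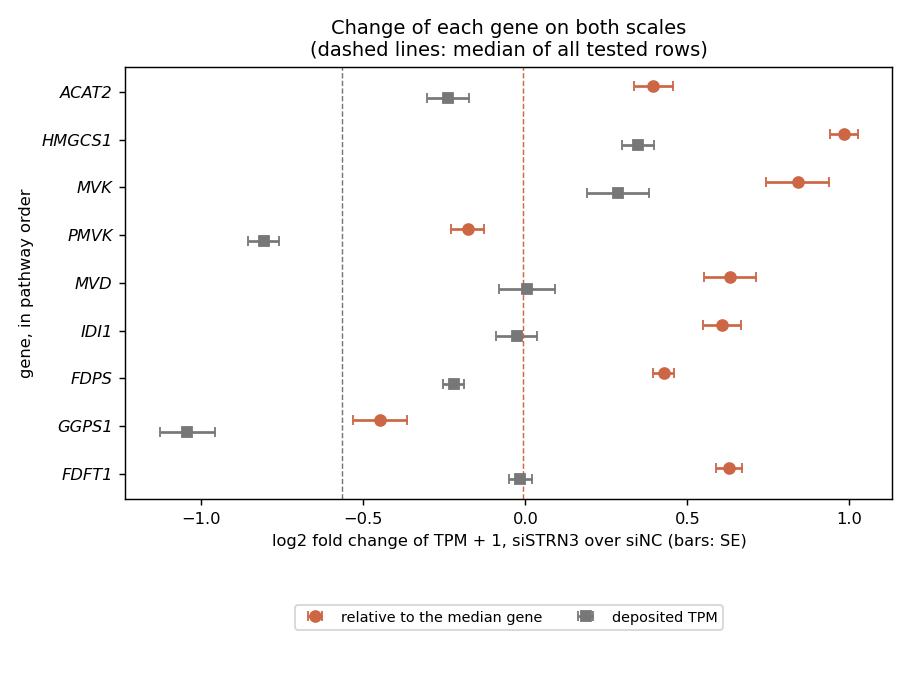
Log2 fold change of TPM + 1 of each gene, siSTRN3 over siNC, with its SE, in pathway order from top to bottom; circles are relative to the median gene, squares are deposited TPM, and dashed lines mark the median of all tested rows on each scale. The circles of HMGCS1 (0.98) and MVK (0.84) lie farthest right and that of GGPS1 (-0.45) farthest left.

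The promoters of 5 of the genes are printed because genes that rose and genes that fell can be read side by side. RefSeq promoter windows (GRCh38.p14, 250 bases before to 50 bases after the transcription start) were searched for 7 of the 9 genes. Where a gene had several windows, the one nearest the GENCODE gene start is shown. No window was found for ACAT2, and FDFT1 was left out of the search by choice. Each is written 5′ to 3′ on the gene's own strand, with every CCAAT box in capitals, CCAAT where it lies on the gene's strand and ATTGG where it lies on the other.
HMGCS1 (chr5:43313363-43313662, minus strand): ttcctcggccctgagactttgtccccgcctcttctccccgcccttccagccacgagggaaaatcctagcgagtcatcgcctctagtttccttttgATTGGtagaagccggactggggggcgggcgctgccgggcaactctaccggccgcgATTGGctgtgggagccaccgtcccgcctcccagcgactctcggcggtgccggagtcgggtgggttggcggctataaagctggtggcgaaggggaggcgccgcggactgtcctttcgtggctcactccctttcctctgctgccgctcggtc
MVK (chr12:109573544-109573843, plus strand): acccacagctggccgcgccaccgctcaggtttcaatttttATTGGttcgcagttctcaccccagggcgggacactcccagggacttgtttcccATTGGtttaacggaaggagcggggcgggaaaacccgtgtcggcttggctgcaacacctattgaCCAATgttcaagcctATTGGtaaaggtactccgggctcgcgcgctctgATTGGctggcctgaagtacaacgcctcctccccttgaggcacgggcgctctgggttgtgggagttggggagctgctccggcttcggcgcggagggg
FDPS (chr1:155308616-155308915, plus strand): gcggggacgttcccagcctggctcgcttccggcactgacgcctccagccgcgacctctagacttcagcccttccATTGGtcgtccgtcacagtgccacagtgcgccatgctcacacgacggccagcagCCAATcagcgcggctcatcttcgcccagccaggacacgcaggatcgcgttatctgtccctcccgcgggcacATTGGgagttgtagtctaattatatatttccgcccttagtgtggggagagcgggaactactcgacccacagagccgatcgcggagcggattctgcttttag
PMVK (chr1:154936670-154936969, minus strand): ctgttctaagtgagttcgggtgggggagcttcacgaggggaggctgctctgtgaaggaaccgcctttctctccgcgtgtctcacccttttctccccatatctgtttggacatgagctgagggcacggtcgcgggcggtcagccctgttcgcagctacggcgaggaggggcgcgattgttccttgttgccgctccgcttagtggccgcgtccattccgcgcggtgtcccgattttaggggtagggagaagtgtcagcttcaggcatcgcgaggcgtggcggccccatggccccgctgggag
GGPS1 (chr1:235326966-235327265, plus strand): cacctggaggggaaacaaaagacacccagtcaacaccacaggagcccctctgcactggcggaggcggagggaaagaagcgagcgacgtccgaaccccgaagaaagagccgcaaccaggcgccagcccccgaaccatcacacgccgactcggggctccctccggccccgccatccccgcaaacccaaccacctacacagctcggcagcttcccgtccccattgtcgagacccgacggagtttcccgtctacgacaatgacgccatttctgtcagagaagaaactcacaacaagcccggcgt

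Among the 7 windows, CCAAT was found in all 5 of genes that rose and in neither of the 2 of genes that fell. ACAT2 and FDFT1, which also rose, were not searched. The relative call of PMVK was at the edge of the threshold (limma adjusted p = 0.0482). This split is only described and was not tested, since the motif was kept with the directions known. MVK held 5, FDPS and MVD 3 each, and HMGCS1 and IDI1 2 each, while PMVK and GGPS1 held 0. At least 1 CCAAT on either strand was present in 34.6% of all 35116 promoter windows, and 2 or more in 10.8%. In HMGCS1 the boxes began at -155 and -100 from the start, and in FDPS at -176, -122 and -51. The GC box GGGCGG, on either strand, was found in the window nearest the gene start of each of these genes except GGPS1, whose other 2 windows held 2 each, and in 45% of all windows. The sterol element searched for, TCACNCCAC on either strand, was in none of the 12 windows of the 7 genes and in 1.13% of all windows. Only exact matches were counted, and looser forms that were looked at are not reported. The search therefore cannot show that a window lacks a sterol element. Another of the 3 GGPS1 windows, at a downstream start, held 1 CCAAT, the other HMGCS1 window held 0, and the other 2 of IDI1 held 3 and 0. A match is only a match of letters, the 3 motifs reported were kept from a larger set that was looked at with the direction of the genes known, and no CCAAT box in the windows counted here shared bases with a GC box.

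The first steps make HMG-CoA. ACAT2, the cytosolic thiolase that joins acetyl-CoA into acetoacetyl-CoA (chromosome 6, 159760328 to 159779055), was listed at 35.73, 42 and 38.13 TPM in siNC and at 31.55, 32.07 and 33.93 TPM in siSTRN3. All siSTRN3 libraries were lower as deposited, and all were higher after rescaling. Relative to the median gene ACAT2 rose 1.31-fold (log2 fold change 0.39 ± 0.06 SE, limma adjusted p = 0.00688), while its deposited log2 fold change was -0.24 ± 0.07 SE (adjusted p = 0.0119). Its annotated exons share 397 bases with TCP1 (119 TPM) and 1141 bases with SOD2 (18.4 TPM), both on the opposite strand, and the strand setting of the counting is not given, so the value of ACAT2 is uncertain. Relative to the median gene SOD2 also rose (0.34 ± 0.06 SE, limma adjusted p = 0.0107), while TCP1 stood at -0.08 (limma adjusted p = 0.0625).

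HMGCS1, the cytosolic HMG-CoA synthase and a standard SREBP2 target (chromosome 5, 43289395 to 43313512), had the highest fold change of the branch in the direction of the labels; with the labels swapped it would have the lowest, 0.506-fold, and GGPS1 the highest, 1.37-fold, relative to the median gene. Its level was 37.29, 39.62 and 38.35 TPM in siNC and 48.89, 46.78 and 51.82 TPM in siSTRN3. Every siSTRN3 library was above every siNC library even as deposited. As deposited it was higher by 0.35 ± 0.05 SE in log2 (limma, adjusted p = 0.000518), and on the rescaled values by 0.98 ± 0.04 SE (1.98-fold, adjusted p = 7.21e-05), above 99.0% of tested rows. No expressed gene overlapped its exons.

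The next 3 enzymes act on mevalonate, and they did not move as one. MVK, mevalonate kinase (chromosome 12, 109573255 to 109598117), had the lowest mean level of the 9 genes in both groups, at 5.48, 5.05 and 5.39 TPM in siNC and 7.71, 6.33 and 6.1 TPM in siSTRN3. The siSTRN3 libraries were all higher on both scales, with siSTRN3 replicate 1 above the other two. MVK rose by 0.84 ± 0.10 SE in log2 (limma adjusted p = 0.00269; deposited 0.29 ± 0.10 SE, adjusted p = 0.0271). At this level the added 1 TPM understates the change: with a pseudocount of 0.1 it was 0.97. MVK shares 306 exon bases with MMAB (17.9 TPM) on the opposite strand, which stood at 0.49 ± 0.18 SE (limma adjusted p = 0.0955).

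PMVK, which adds the second phosphate (chromosome 1, 154924734 to 154936991), went the other way. It was listed at 38.31, 39.7 and 38.69 TPM in siNC and at 20.59, 22.74 and 22.11 TPM in siSTRN3, so the siSTRN3 libraries were far lower as deposited (log2 fold change -0.81 ± 0.05 SE, limma adjusted p = 1.11e-05). The median row itself stood at -0.57 on that scale, and relative to it PMVK fell by 0.18 ± 0.05 SE in log2 (adjusted p = 0.0482). A lower relative fold change than that of PMVK was seen in 22.2% of tested rows. The relative call is at the edge of the threshold and was lost when any library other than siSTRN3 replicate 2 was left out (adjusted p between 0.0945 and 0.131), and without the trend, without the filter and with the replicate block (adjusted p between 0.0770 and 0.0863).

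MVD, the decarboxylase that yields isopentenyl diphosphate (chromosome 16, 88651935 to 88663161), was at 22.96, 26.92 and 24.91 TPM in siNC and 27.4, 22.57 and 25.15 TPM in siSTRN3. As deposited the groups overlapped and no difference was detected (log2 fold change 0.0047 ± 0.086 SE, limma adjusted p = 0.960). Relative to the median gene MVD rose by 0.63 ± 0.08 SE in log2, 1.55-fold (adjusted p = 0.00362), with all siSTRN3 libraries above all siNC libraries.

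IDI1 and FDPS assemble the units. IDI1, the isomerase that supplies dimethylallyl diphosphate (chromosome 10, 1039152 to 1049170), was at 35.01, 38.54 and 33.29 TPM in siNC and 33.23, 34.92 and 36.53 TPM in siSTRN3, overlapping as deposited (log2 fold change -0.03 ± 0.06 SE, limma adjusted p = 0.704). It rose by 0.61 ± 0.06 SE relative to the median gene (adjusted p = 0.00154). Its paralogue IDI2 was listed at 0 in every library.

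FDPS, farnesyl diphosphate synthase (chromosome 1, 155308748 to 155320666), had the highest level per length of the 9 genes. It was at 219.92, 213.92 and 216.26 TPM in siNC and 179.61, 185.72 and 192.2 TPM in siSTRN3. As deposited all siSTRN3 libraries were lower (log2 fold change -0.22 ± 0.03 SE, limma adjusted p = 0.000654). After rescaling all were higher (0.43 ± 0.03 SE, 1.34-fold, adjusted p = 0.000708). FDPS begins 372 kb beyond the end of PMVK on chromosome 1, and the relative changes of these neighbours had opposite signs. FDPS shares 693 exon bases with RUSC1-AS1 (1.57 TPM) on the opposite strand, which also rose (0.44 ± 0.11 SE, limma adjusted p = 0.0387).

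At the branch point the gene toward sterols rose and the side-branch gene fell, although the former was level as deposited. FDFT1, squalene synthase (chromosome 8, 11795573 to 11839309), was at 92.95, 88.9 and 91.91 TPM in siNC and 88.25, 93.04 and 89.51 TPM in siSTRN3. These overlap, with a log2 fold change of -0.02 ± 0.03 SE as deposited (limma, adjusted p = 0.685), whereas relative to the median gene FDFT1 rose by 0.63 ± 0.04 SE, 1.55-fold (adjusted p = 0.000343).

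GGPS1, geranylgeranyl diphosphate synthase (chromosome 1, 235327350 to 235344532), was at 17.08, 15.51 and 16.04 TPM in siNC and 6.74, 7.07 and 8.3 TPM in siSTRN3. It was lower in every siSTRN3 library on both scales. As deposited it was lower by a log2 fold change of -1.04 ± 0.08 SE (limma, adjusted p = 3.63e-05), and against the median gene GGPS1 fell by 0.45 ± 0.08 SE (1.37-fold, adjusted p = 0.0128). Only 4.32% of tested rows had a lower relative fold change. Without siNC replicate 1 the relative call ended (log2 fold change -0.41, adjusted p = 0.0505). GGPS1 shares 1422 of its 3809 annotated exon bases with TBCE (21.1 TPM), a tubulin folding gene on the same strand, which also fell (-0.23 ± 0.06 SE, adjusted p = 0.0398), so reads of both genes could be split differently by other counting.

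**Figure D2:**
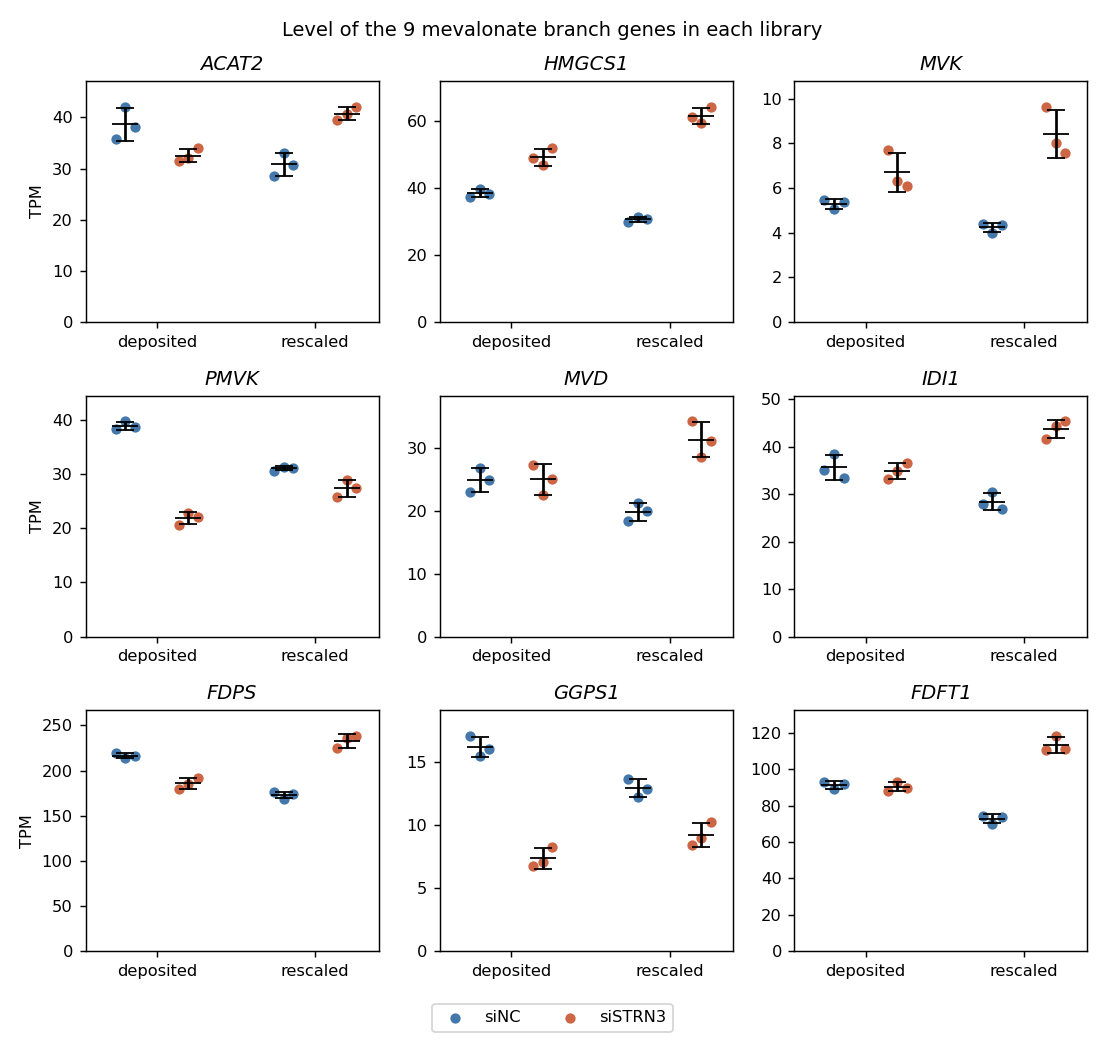
TPM of each gene in every library, as deposited (left pair) and after rescaling to the median gene (right pair), blue for siNC and orange for siSTRN3; bars are the mean ± SD of 3 libraries and every axis starts at 0. In the rescaled pairs the orange points lie above the blue ones in 7 panels and below them in those of PMVK and GGPS1.

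Levels within a treatment were close between libraries. The coefficient of variation of deposited TPM over 3 libraries ran from 1.40% (FDPS) to 8.19% (ACAT2) in siNC and from 2.75% (FDFT1) to 13.0% (MVK) in siSTRN3. In siNC the order of mean TPM was FDPS (217 ± 3.02 SD), FDFT1 (91.3 ± 2.10), PMVK (38.9 ± 0.718), ACAT2 (38.6 ± 3.16), HMGCS1 (38.4 ± 1.17), IDI1 (35.6 ± 2.68), MVD (24.9 ± 1.98), GGPS1 (16.2 ± 0.799) and MVK (5.31 ± 0.227). PMVK, ACAT2, HMGCS1 and IDI1 do not stand apart beyond this spread. In siSTRN3 HMGCS1 (49.2 ± 2.53 TPM) stood next after FDPS and FDFT1, IDI1 (34.9 ± 1.65) and ACAT2 (32.5 ± 1.25) followed, then MVD (25 ± 2.42), and PMVK (21.8 ± 1.11) had moved behind them. GGPS1 (7.37 ± 0.822) and MVK (6.71 ± 0.871) were last and within each other's spread.

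The ratio of 2 genes within a library does not depend on the library's factor. HMGCS1 over PMVK was 0.973, 0.998 and 0.991 in siNC and 2.37, 2.06 and 2.34 in siSTRN3, a mean ratio 2.29 times higher. PMVK over MVK fell from a mean of 7.34 ± 0.458 to 3.30 ± 0.542 (SD, n = 3), and MVD over PMVK went from 0.640 ± 0.0395 to 1.15 ± 0.170. In both comparisons of PMVK with its neighbours in the pathway the groups did not overlap. Of single rows after rescaling, 20.7% were higher and 21.8% lower without overlap. The share among ratios of other gene pairs was not computed.

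At the branch point the balance between the genes that use farnesyl diphosphate differed between the groups. FDFT1 over GGPS1 was 5.44, 5.73 and 5.73 in siNC and 13.1, 13.2 and 10.8 in siSTRN3, 2.19 times higher on average. GGPS1 over FDPS went from 0.0748 ± 0.00263 to 0.0396 ± 0.00312, and FDFT1 over FDPS from 0.421 ± 0.00491 to 0.486 ± 0.0182. HMGCS1 over ACAT2 went from 0.998 ± 0.0507 to 1.51 ± 0.0474. By contrast, MVK over HMGCS1 (0.138 ± 0.00994 and 0.137 ± 0.0200) and IDI1 over MVD (1.43 ± 0.0942 and 1.40 ± 0.172) overlapped between the groups. FDPS over IDI1 was a little lower in siSTRN3, 5.33 ± 0.0723 against 6.11 ± 0.496. These ratios are described without a test, since the pairs were set with the genes' changes known.

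**Figure D3:**
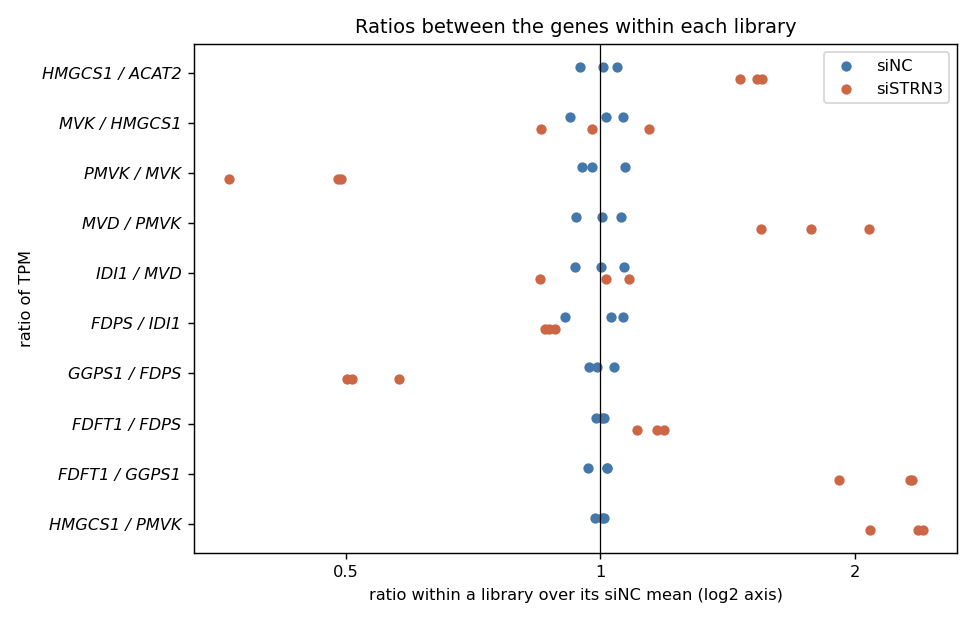
Ratio of the deposited TPM of 2 genes within each library, divided by the mean ratio of the siNC libraries, on a log2 axis; blue points are siNC and orange points siSTRN3 libraries. FDFT1 / GGPS1 and HMGCS1 / PMVK lie about 2-fold to the right in all siSTRN3 libraries, PMVK / MVK and GGPS1 / FDPS lie to the left, and MVK / HMGCS1 and IDI1 / MVD overlap.

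Genes around the branch were read from lists in the same fit. Beside the counts of every list stand the shares of all tested rows, 11% called higher and 10.4% lower. As deposited these shares were 1.01% and 80.8%. No list was tested as a set, and a count near these shares says nothing particular about its list. From squalene to cholesterol 11 of 12 genes rose and none fell, with a list median of 0.39 (deposited: 0 higher, 9 lower, median -0.25). The methylsterol oxidase gene MSMO1 rose by 0.74 ± 0.05 SE (limma adjusted p = 0.000356), the squalene epoxidase gene SQLE by 0.50 ± 0.03 SE (adjusted p = 0.000309), and the reductase gene DHCR7 by 0.37. CYP51A1, the lanosterol demethylase gene, named after its value was seen, rose by 0.21 (adjusted p = 0.0455), a call that ended without any 1 of the 6 libraries (adjusted p between 0.0658 and 0.131). SC5D, the gene that did not pass, stood at 0.07 (adjusted p = 0.582). Whether these genes and the 9 of the branch differ was not tested.

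Of 7 tested genes that supply acetyl-CoA, 4 rose and none fell, with a median of 0.24 (deposited: 1 higher, 5 lower). ACLY, the citrate lyase that makes cytosolic acetyl-CoA, was at 64.16, 63.68 and 61.49 TPM in siNC and 84.94, 81.99 and 80.12 TPM in siSTRN3. It rose 2.03-fold (log2 fold change 1.02 ± 0.04 SE, limma adjusted p = 3.34e-05) and was higher as deposited as well. The acetyl-CoA synthetase gene ACSS2 (0.60), the citrate carrier gene SLC25A1 (0.24) and PDHB (0.15) also rose, although PDHB lost its call without any 1 of the 6 libraries (adjusted p between 0.0519 and 0.129). ACOT12 did not reach the filter.

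Of 15 genes of sterol sensing and uptake, 4 rose and 2 fell, with a median of 0.08 (deposited: 1 higher, 10 lower). INSIG1, which holds SREBP in the endoplasmic reticulum and is itself an SREBP target, rose by 1.06 ± 0.09 SE (limma adjusted p = 0.000951). MBTPS1, the protease that cleaves SREBP first, rose by 0.48, and SOAT1, the sterol esterifying enzyme, by 0.47 (adjusted p = 0.0554 and 0.0569 without siSTRN3 replicate 1 or 2). ABCG1, a sterol exporter gene, fell by 0.34 ± 0.05 SE (adjusted p = 0.00759). The genes of the factors themselves did not pass: SREBF2 stood at -0.02 (adjusted p = 0.647) and SREBF1 at 0.04 (adjusted p = 0.685). Both were named after their values were seen. After dropping siSTRN3 replicate 1, 3 genes of this list were called.

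Downstream of GGPS1 and FDPS lie prenyl transferases, prenyl protein processing, and ubiquinone and dolichol synthesis. Of 18 such genes 3 rose and 5 fell, with a median of -0.11 (deposited: 0 higher, 16 lower). COQ2, the prenyl transferase of ubiquinone synthesis, fell by 0.49 ± 0.08 SE (limma adjusted p = 0.00756). RCE1, the protease that trims prenylated proteins, fell by 0.37 ± 0.05 SE (adjusted p = 0.00321), and PDSS2, a subunit of the polyprenyl diphosphate synthase, fell by 0.36. PDSS2 lost its call without any siNC library or siSTRN3 replicate 2 (adjusted p between 0.0502 and 0.0734). FNTB, the beta subunit of farnesyl transferase, rose by 0.29 (adjusted p = 0.0541 and 0.0546 without siNC replicate 1 or 2). FNTA, the alpha subunit shared with geranylgeranyl transferase I, was named after its value was seen and fell by 0.55 ± 0.15 SE (adjusted p = 0.0383, and between 0.0798 and 0.116 without any library other than siSTRN3 replicate 1). Called genes in this list numbered 2 after dropping siNC replicate 1 or siNC replicate 2, 3 after dropping siSTRN3 replicate 2, 4 after dropping siNC replicate 3, 5 after dropping siSTRN3 replicate 3, and 3 with the replicate block.

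Of 6 tested isozymes and enzymes of HMG-CoA side reactions, 1 rose and 2 fell, with a median of 0.07 (deposited: 0 higher, 6 lower). ACAT1, the mitochondrial thiolase, rose by 0.29 ± 0.08 SE (limma adjusted p = 0.0390, and between 0.0940 and 0.117 when siNC replicate 1, siNC replicate 2, siSTRN3 replicate 1 or siSTRN3 replicate 3 was dropped). ACAA2, another mitochondrial thiolase, fell by 0.22.

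Of 7 genes of fatty acid synthesis, 5 rose and none fell, with a median of 0.20 (deposited: 0 higher, 6 lower). The desaturase gene SCD rose by 0.33 ± 0.02 SE (limma adjusted p = 0.000408), ACSL3 by 0.36, ELOVL6 by 0.48 and the fatty acid synthase gene FASN by 0.18 ± 0.05 SE (adjusted p = 0.0400). ELOVL6 lost significance when any library but siSTRN3 replicate 1 was dropped (adjusted p between 0.0692 and 0.0931), and so did FASN when any but the third of each group was dropped (adjusted p between 0.0949 and 0.103). Called genes in this list numbered 2 after dropping siNC replicate 1, siNC replicate 2 or siSTRN3 replicate 2, 3 after dropping siNC replicate 3 or siSTRN3 replicate 1, and 3 with the replicate block.

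**Figure D4:**
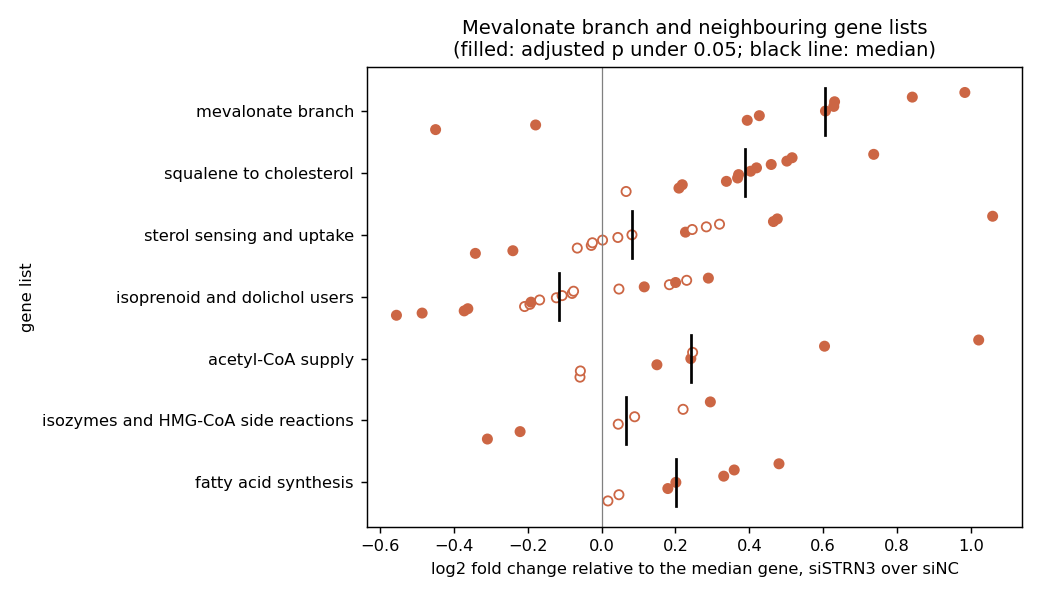
Relative log2 fold change of every tested gene of the mevalonate branch and of 6 neighbouring lists, siSTRN3 over siNC; filled points passed adjusted p under 0.05, open points did not, and black lines are medians. The medians are 0.61 for the branch, 0.39 from squalene to cholesterol and -0.11 for users of isoprenoids and dolichol.

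Among the 5 rows outside the branch whose profile over the 6 libraries lay nearest to the mean profile of the 9 genes were NME2, RRP1B, DDN and RPLP1, out of 8261 rows with a mean of at least 5 TPM. The Euclidean distances of the 5 on the log2 scale were 0.0198 to 0.0566, and the relative log2 fold changes were 0.42 to 0.46. Among the 9 genes, FDPS (0.0788) and ACAT2 (0.144) lay nearest to the branch mean, and GGPS1 (1.10) and PMVK (0.755) farthest. With 3 libraries a group, this distance mostly reflects the size of 1 difference.

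In the authors' deposited table, which gives p-values and no fold changes, 8 of the 9 genes had an adjusted p under 0.05, as had 31.7% of the rows tested here. The smallest was that of HMGCS1 (1.25e-91 in the authors' deposited table), then FDFT1 (1.93e-64 in the authors' deposited table). PMVK did not pass there (0.0612 in the authors' deposited table). STRN3 had an adjusted p of 9.50e-14 in the authors' deposited table, with no direction given. None of the 9 genes was marked significant by the authors, whose deposited table marks 57 rows so.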

How the data were processed

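RNA of 3 siNC and 3 siSTRN3 libraries was analysed. The authors deposited TPM for each library, in a single file, per the file headers. HISAT2, Cufflinks, RSEM and the build GRCh38.p10 are named, with no versions, in the submitters' processing notes. The sources used here give neither annotation nor strand setting. The authors also deposited p-values and adjusted p-values (DESeq2 by the file's name), quoted only as theirs. The file names 58233 gene rows and has 2 rows without a gene.

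The 13004 rows that reached 1 TPM in 3 or more libraries entered limma-trend (limma 3.58.1, R 4.3.3, files read with the package data.table, version 1.17.8) on log2(TPM + 1), after 1 factor per library (0.789 to 1.27) gave equal medians over these rows, and again as deposited. Benjamini-Hochberg adjustment covered all tested rows, at a threshold of 0.05. Alternatives changed the scale, pseudocount, filter, model and libraries. The design took no block, because no label says that a replicate number is shared. Deviations of same-numbered libraries correlated at -0.0804 to 0.0570, and those of differently numbered ones at -0.0733 to 0.0971. With 3 libraries a group this cannot show whether equal numbers share a batch, and a replicate block was run as an alternative. The members, lists and scale were chosen with earlier results of these data known. From each list at most 4 called genes are named, those of smallest adjusted p (the 2 of highest level if none was called); some genes that these rules select are not reported here, and the counts include them.

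Gene positions and exon overlaps are from GENCODE release 29 (GRCh38). Copies of the longest transcripts (95% identity over 50% of the length) were searched with blastn (BLAST+ 2.17.0) and none was found for the 9 genes. Promoters are RefSeq's. Python 3.11.15, pandas 2.3.3, numpy 2.4.6, scipy 1.17.1 and matplotlib 3.10.9 made the tables and plots. On 13004 simulated rows for siSTRN3 against siNC, the relative fit called 78 of 100 rows changed 1.5-fold, 93 of 100 changed 2-fold and 9 of 12804 unchanged ones. The changed rows were drawn only above a floor higher than the 1 TPM of the filter, and noise was independent between libraries. These counts therefore do not speak for rows of low level or for effects shared within a library.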

Additional observations from a re-analysis of the deposited data

How the results depend on the processing

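The scale changed the sign of 4 of the 9 log2 fold changes, and of these only ACAT2 and FDPS were called on both scales. IDI1 and FDFT1 were not called as deposited (limma adjusted p = 0.704 and 0.685). Nor was MVD, whose sign stayed the same at 0.0047 (limma adjusted p = 0.960). As deposited, 2 genes of the branch were called higher and 4 lower, out of 131 rows higher and 10512 lower in all, and 4 genes turned sign (ACAT2 -0.24, FDPS -0.22, IDI1 -0.027, FDFT1 -0.016); the common shift of -0.57 in the median row separates both scales by construction. HMGCS1 and MVK kept their sign and call under all 15 alternatives run. The 7 higher calls were the same in number under every alternative except the deposited scale. The count of lower calls was 1 with no filter, with the replicate block and without the trend, and 0 to 2 when 1 library was left out; the cause was not tested. Rows called numbered 910 higher and 835 lower with the replicate block, and 786 to 1103 higher and 699 to 1077 lower with 1 library left out, where fewer samples enter.

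STRN3 stood at 0.77 (adjusted p = 0.00894) relative to the median gene, at 0.24 (adjusted p = 0.142) as deposited, and at 0.68 to 0.89 with 1 library left out. As deposited, called genes numbered 11 for sterol sensing, 16 for isoprenoid users and 6 for isozymes. Fatty acid synthesis had 3 called genes over protein-coding TPM, with the replicate block and without the trend, and isoprenoid users had 3 with the block. With 1 library left out, the called genes numbered 3 to 5 for sterol sensing, 2 to 6 for isoprenoid users, 2 to 4 for fatty acid synthesis, 8 to 10 from squalene to cholesterol, 3 to 4 for acetyl-CoA supply and 2 to 3 for isozymes. Summing members with near-identical copies was not run, because none was found. TPM keeps no depth, so counting error is unknown.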
